A study of Mus musculus with 8 samples.

Results

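The 10 genes described here, whose products carry costimulatory or coinhibitory signals between antigen-presenting cells and lymphocytes, were followed through an LPS time course in mouse macrophages: Cd80, Cd86, Icosl, Cd274, Pdcd1lg2, Cd83, Cd200r1, Havcr2, Slamf7 and Icos. They were taken by name, through every array probe set that the platform annotation gives a single gene symbol. All 10 were measured, among 18193 genes with such a probe set, and all 10 were among the 12540 genes that passed a filter on low values. The name of the set describes only some of them: Cd80, Cd86, Icosl, Cd274 and Pdcd1lg2 encode ligands, Cd200r1, Havcr2 and Icos encode receptors, Slamf7 encodes a receptor that binds itself on neighbouring cells, and Cd83 encodes a surface protein of activated antigen-presenting cells.

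The RNA came from peritoneal macrophages of thioglycollate-injected mice, either wild type or Zc3h12a-/-, with no other allele stated. Zc3h12a encodes regnase-1, an endoribonuclease that degrades inflammatory mRNAs. The cells were unstimulated (0 h) or given 100 ng/ml LPS for 1, 2 or 4 h, so that the 8 arrays hold 1 array for each of 2 genotypes at each of 4 times. The labels give neither the mouse strain behind the genotypes, nor the design of the Zc3h12a allele, nor the number of animals, nor whether animals were pooled. With no replicate of any condition, every p-value below measures the spread between these 8 arrays: the 4 times stand in for replicates of a genotype, and the 2 genotypes for replicates of a time. Whether the 4 arrays of a genotype came from separate animals is not stated. The genotype p-values may therefore hold no spread between animals, and genotype cannot be told apart from cell preparation. In bulk RNA, fewer cells of a type and less RNA per cell cannot be told apart.

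T cells need a signal beside antigen recognition, and B7-family ligands on antigen-presenting cells provide it. CD80 and CD86 bind CD28, which activates, and CTLA-4, which restrains; ICOS ligand binds ICOS on activated T cells; PD-L1 (Cd274) and PD-L2 (Pdcd1lg2) bind PD-1 and restrain T cells. LPS acts through TLR4 on macrophages and is a standard inducer of several of these ligands, whereas CD200R1 and TIM-3 (Havcr2) are receptors through which myeloid cells themselves can be restrained.

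The 8 arrays were alike in overall scale, with medians of 3.14 to 3.21 on the deposited log2 scale and pairwise correlations of 0.933 to 0.988. The highest of 27 bacterial control probe sets, taken as the background of each array, lay between 2.96 and 3.26. The brighter Zc3h12a probe set read 6.12, 8.02, 8.87 and 8.57 in wild-type cells (in the order 0, 1, 2 and 4 h), against 6.73, 7.70, 8.75 and 8.50 in the arrays labelled Zc3h12a KO. Values by array are given in this order of times throughout. In the arrays labelled as knockout it was higher at 0 h and slightly lower at 1, 2 and 4 h, with a mean difference of 0.02 (SE 0.16, limma adjusted p = 0.941). The other probe set lay near background, at 3.22, 3.12, 3.31 and 3.31 against 3.01, 3.19, 3.22 and 3.15. No source used here places either probe set relative to the deleted part, so they check nothing. These arrays are called the labelled knockout below. Macrophage markers held a like range in both genotypes (summed linear signal of the list 33320 to 37070 in wild type and 33190 to 38160 in the labelled knockout), although within the list Adgre1 and Itgam were higher and Fcgr1 was lower in the labelled knockout. The 10 listed markers of resident peritoneal macrophages were all higher in the labelled knockout, by a median of 2.16 log2 units (summed signal 2585 to 3531 against 11740 to 13190), and 6 of 8 tested mesothelial and stromal markers were lower (summed signal 1411 to 1900 against 460.9 to 710). These marker lists move with the genotype, and their part in the genotype differences of the 10 genes was not tested. The Actb control probe sets for the 3′ end read above those for the 5′ end by 2.64, 2.35, 2.43 and 2.16 log2 units in wild type and by more at each time in the labelled knockout, 3.11, 2.61, 2.52 and 2.30. The same measure on Gapdh was higher in the labelled knockout at 0 h only (3.01 against 3.31) and lower at 1, 2 and 4 h (2.99, 3.16 and 2.98 in wild type, 2.95, 3.04 and 2.90 in the labelled knockout). The part of RNA quality was not tested either.

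LPS raised 7 of the 10 genes at 4 h and lowered 2. Genes were called at a Benjamini-Hochberg adjusted p under 0.05 in limma, adjusted over all 12540 genes. At 4 h against 0 h, 43.8% of all tested genes were called, 14.4% as higher and 29.4% as lower. At 2 h the same 7 genes were higher and the same 2 lower, against a background of 41.8% called (12.0% higher and 29.8% lower). At 1 h Icosl and Cd83 were called, both as higher, where 10.5% of genes were called (3.85% higher and 6.62% lower). The median change of the 10 genes was 0.31, 1.18 and 1.56 log2 units at 1, 2 and 4 h, against -0.09, -0.16 and -0.12 over all tested genes. The 3 comparisons share their 0 h arrays. The direction of the calls over all genes depended on the scaling. At 4 h, 1809 genes were higher and 3689 lower in the deposited values, 2197 and 3059 after cyclic loess, and 6416 and 1873 after centring on 9 housekeeping genes, which moved the median of all genes to 0.39. In the deposited values these 9 genes themselves changed by a median of -0.31 at 2 h and -0.52 at 4 h. Of them 3 were called lower at 2 h and 5 at 4 h, with 0 higher at either time. Whether they responded to LPS or followed the scale of the arrays was not tested. The 7 higher and 2 lower members were 7 and 2 under each of these scalings at 2 h and at 4 h. At 2 h the split over all genes was 1499 higher and 3740 lower as deposited, 1882 and 2871 after cyclic loess and 4917 and 1831 after housekeeping centring, and at 1 h it was 483 and 830, 545 and 544, and 647 and 383.

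**Figure D1:**
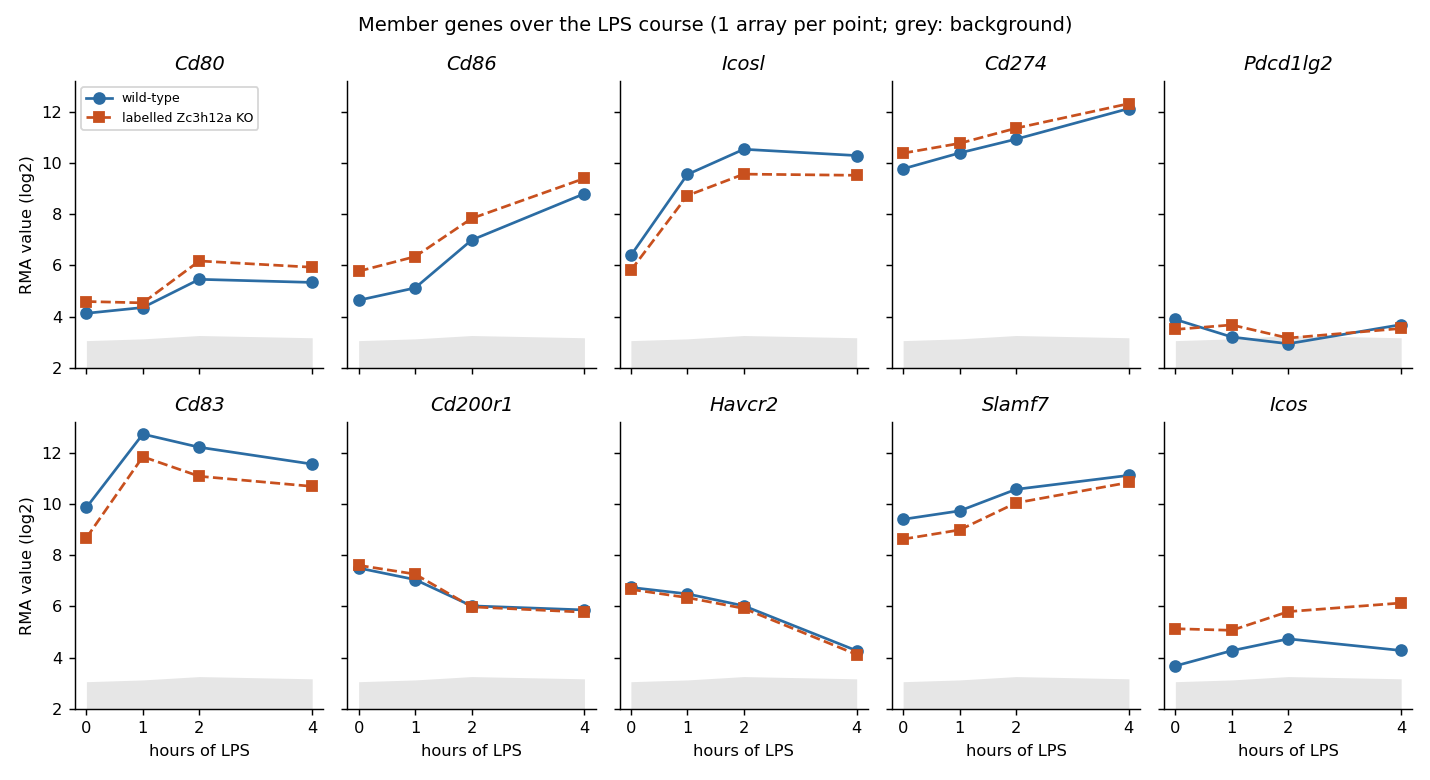
Log2 expression of each of the 10 genes on its representative probe set against hours of LPS, with 1 point per array and 1 line per genotype; the grey band marks the background of the bacterial controls. Cd86 climbed to 8.80 and 9.40 at 4 h, Cd83 peaked at 1 h, Havcr2 fell to 4.27 and 4.12 at 4 h, and Pdcd1lg2 lay close to the band.

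Cd86, a B7 ligand of CD28 and CTLA-4, rose by 2 h and further by 4 h. Probe set 1449858_at read 4.64, 5.12, 6.98 and 8.80 in wild-type cells, against 5.77, 6.34, 7.83 and 9.40 in labelled-knockout cells. Both genotypes read higher at each later time. The rise over 0 h was 2.20 log2 units at 2 h (SE 0.17, limma adjusted p = 0.00027) and 3.90 at 4 h, a 14.9-fold change (adjusted p = 2.13e-05), while the 0.53 at 1 h did not pass (adjusted p = 0.118). The step from 2 h to 4 h was 1.69 (adjusted p = 0.00148).

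Cd80, the other B7 ligand of CD28 and CTLA-4, had a low signal that rose between 1 h and 2 h. Probe set 1427717_at read 4.13, 4.35, 5.45 and 5.33 in wild-type cells, against 4.59, 4.53, 6.17 and 5.93 in labelled-knockout cells. The 2 h and 4 h arrays of both genotypes lay above all 0 h and 1 h arrays. The change over 0 h was 0.09 at 1 h (SE 0.15, limma adjusted p = 0.766), 1.46 at 2 h (adjusted p = 0.00074) and 1.27 at 4 h (adjusted p = 0.00083), and the step from 2 h to 4 h was -0.18 (adjusted p = 0.463).

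Icosl, which encodes the ligand of ICOS, was the only B7-family ligand of the 5 called at 1 h. Probe set 1419212_at read 6.39, 9.55, 10.53 and 10.29 in wild-type cells, against 5.80, 8.72, 9.56 and 9.52 in labelled-knockout cells. All LPS arrays lay above both 0 h arrays. The rise was 3.04 log2 units at 1 h, an 8.23-fold change (SE 0.13, limma adjusted p = 7.23e-05), 3.95 at 2 h, a 15.5-fold change (adjusted p = 1.3e-05), and 3.81 at 4 h (adjusted p = 1.02e-05). From 2 h to 4 h it moved by -0.15 (adjusted p = 0.491).

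Cd274, which encodes PD-L1, already had a signal far above background without LPS. Probe set 1419714_at read 9.77, 10.39, 10.93 and 12.13 in wild-type cells, against 10.38, 10.77, 11.36 and 12.32 in labelled-knockout cells. The signal was higher at each later time in both genotypes. The rise over 0 h was 1.07 log2 units at 2 h (SE 0.13, limma adjusted p = 0.0014) and 2.15 at 4 h, a 4.42-fold change (adjusted p = 6.47e-05), and the step from 2 h to 4 h was 1.08 (adjusted p = 0.00273). The 0.50 at 1 h did not pass (adjusted p = 0.0661), though it did under 4 of 15 alternative settings.

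Pdcd1lg2, which encodes PD-L2, is the direct neighbour of Cd274 on chromosome 19, with 0 protein-coding genes between them in the RefSeq gene order of GRCm38.p6. Probe set 1450290_at read 3.89, 3.20, 2.94 and 3.68 in wild-type cells, against 3.50, 3.67, 3.16 and 3.53 in labelled-knockout cells. It was above background on 6 of 8 arrays, and both 2 h arrays were below it, so its readings lay near the limit of detection. No LPS comparison of Pdcd1lg2 passed: the change was -0.26 at 1 h (SE 0.21, limma adjusted p = 0.51), -0.64 at 2 h (adjusted p = 0.0514, and from 0.0311 to 0.309 over 14 alternatives, 6 of which passed) and -0.08 at 4 h (adjusted p = 0.781). Since both 2 h arrays were below background, the size of this uncalled 2 h difference cannot be read. With those arrays taken at background, the mean was 1.37-fold lower than at 0 h, which sets no minimum.

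Cd83, a surface protein of activated antigen-presenting cells that is known to limit the turnover of MHC class II and CD86, had an early peak. Probe set 1416111_at read 9.86, 12.73, 12.22 and 11.56 in wild-type cells, against 8.68, 11.85, 11.08 and 10.69 in labelled-knockout cells. In both genotypes the 1 h array was highest and each later array lower, yet still above 0 h. The rise was 3.02 log2 units at 1 h, an 8.10-fold change (SE 0.13, limma adjusted p = 7.87e-05), 2.38 at 2 h (adjusted p = 8.35e-05) and 1.85 at 4 h (adjusted p = 0.000103). It fell by 0.64 from 1 h to 2 h (adjusted p = 0.017) and by 0.53 from 2 h to 4 h (adjusted p = 0.0332). The last step lost its call after cyclic loess, after housekeeping centring and without any 1 of the 0 h, 2 h or 4 h arrays (adjusted p up to 0.177 among the left-out arrays). The step from 1 h to 2 h lost its call without the wild-type 2 h array or either labelled-knockout array of 1 h and 2 h (adjusted p up to 0.116).

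Havcr2 encodes TIM-3, a receptor that binds galectin-9 and phosphatidylserine. Probe set 1451584_at read 6.74, 6.49, 6.02 and 4.27 in wild-type cells, against 6.66, 6.34, 5.92 and 4.12 in labelled-knockout cells. The courses of the genotypes were never more than 0.15 apart. Havcr2 fell by 0.73 at 2 h (SE 0.10, limma adjusted p = 0.00227) and by 2.51 at 4 h, a 5.69-fold decrease (adjusted p = 1.69e-05), most of it between 2 h and 4 h, where it fell by 1.78 (adjusted p = 0.000313). It also fell by 0.44 from 1 h to 2 h (adjusted p = 0.0263), a call lost without any 1 of the 0 h, 1 h or 2 h arrays (adjusted p up to 0.124), after cyclic loess, after housekeeping centring and with trend and robust settings.

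Cd200r1 encodes the receptor of CD200, an inhibitory receptor of myeloid cells. Probe set 1439703_at read 7.50, 7.05, 6.02 and 5.86 in wild-type cells, against 7.60, 7.26, 5.98 and 5.77 in labelled-knockout cells. The 2 h and 4 h arrays lay below all earlier ones. Cd200r1 fell by 1.55 at 2 h (SE 0.12, limma adjusted p = 0.00027) and by 1.73 at 4 h, a 3.33-fold decrease (adjusted p = 0.000104). Most of this came between 1 h and 2 h, where it fell by 1.15 (adjusted p = 0.00197), with -0.18 between 2 h and 4 h (adjusted p = 0.357). Whether its timing differed from that of Havcr2 was not tested.

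Slamf7 encodes CRACC, a SLAM-family receptor of leukocytes. Probe set 1453472_a_at read 9.40, 9.73, 10.57 and 11.12 in wild-type cells, against 8.63, 8.99, 10.04 and 10.84 in labelled-knockout cells, higher at each later time in both. The rise over 0 h was 1.29 log2 units at 2 h (SE 0.15, limma adjusted p = 0.00116) and 1.97 at 4 h, a 3.91-fold change (adjusted p = 0.000145), with 0.34 at 1 h (adjusted p = 0.221). The step from 2 h to 4 h was 0.67 (adjusted p = 0.0247), a call lost without either 2 h array or the labelled-knockout 4 h array (adjusted p up to 0.126).

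Icos encodes a receptor of activated T cells, the partner of ICOS ligand. Probe set 1436598_at read 3.68, 4.27, 4.73 and 4.28 in wild-type cells, against 5.13, 5.07, 5.80 and 6.13 in labelled-knockout cells. The wild-type arrays were highest at 2 h and the labelled-knockout arrays at 4 h. Icos rose by 0.86 at 2 h (SE 0.25, limma adjusted p = 0.0327) and by 0.80 at 4 h (adjusted p = 0.0394). Both calls rest on single arrays: they were lost without any 1 of the 0 h or 2 h arrays, and the 4 h call also without the labelled-knockout 4 h array (adjusted p up to 0.176 at 2 h and 0.23 at 4 h).

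**Figure D2:**
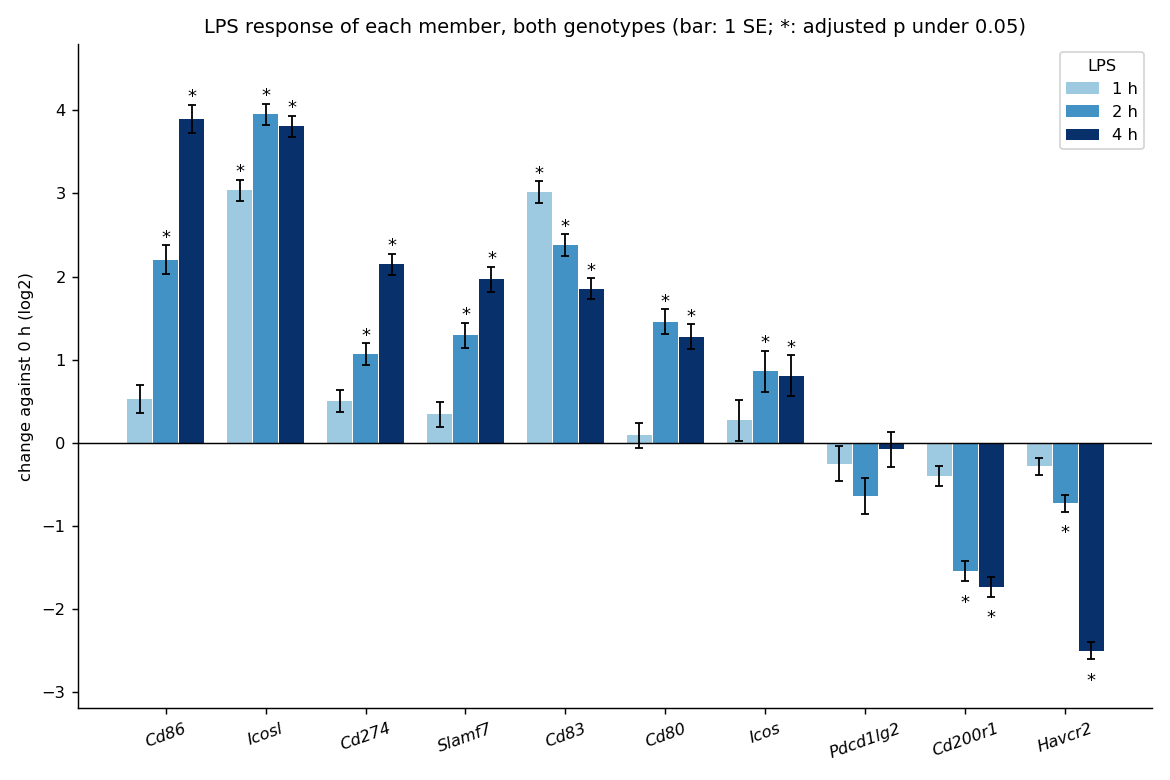
Change in log2 expression over 0 h at 1, 2 and 4 h of LPS for the 10 genes, as bars with error bars of 1 limma SE and an asterisk for an adjusted p under 0.05. Icosl and Cd83 stand at 3.04 and 3.02 at 1 h, Cd86 reaches 3.90 at 4 h, and Cd200r1 and Havcr2 end at -1.73 and -2.51.

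Between successive times, 8 of the 10 genes were called from 1 h to 2 h, where 22.3% of all genes were (7.71% higher and 14.6% lower): Cd80, Cd86, Icosl, Cd274 and Slamf7 rose, and Cd83, Cd200r1 and Havcr2 fell. From 2 h to 4 h 5 were called, where 21.0% of all genes were (11.3% higher and 9.72% lower): Cd86, Cd274 and Slamf7 rose further, and Cd83 and Havcr2 fell. By these calls, the 7 genes that were higher at 4 h showed a peak at 1 h (Cd83), a rise by 1 h with a further step to 2 h (Icosl), a rise at 2 h (Cd80) or a rise that went on to 4 h (Cd86, Cd274, Slamf7). Icos, the last of the 7, passed neither step. Whether the courses differed between genes was not tested. Leaving out 1 array brought the count of members down to as few as 4 from 1 h to 2 h (without either labelled-knockout array of those times) and to 3 from 2 h to 4 h (without either 2 h array or the labelled-knockout 4 h array). The step of Cd274 from 1 h to 2 h, 0.57 (limma adjusted p = 0.0272), was lost without any 1 of the 1 h or 2 h arrays (adjusted p up to 0.14), and that of Slamf7, 0.95 (adjusted p = 0.00763), without either labelled-knockout array of those times (adjusted p up to 0.0574).

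RefSeq promoter windows on GRCm38.p6, 250 bases before the annotated start, were at hand for Cd80, Icosl, Cd274, Pdcd1lg2, Havcr2 and Slamf7, and none was used for Cd86, Cd83, Cd200r1 or Icos. They were searched on both strands because these genes moved together or apart after LPS, a stimulus that is known to activate NF-kB, AP-1 and interferon pathways. The AP-1 motif TGANTCA was in 3 of the 6 windows and in 6.75% of the 32851 promoter windows of all genes, the NF-kB consensus in 1 of 6 and in 1643 of the 32851, the ISRE core, read as paired GAAA repeats with a gap, in 0 of 6 and in 2.98%, and the GAS motif TTCNNNGAA in 0 of 6 and in 7.02%. The 100-base stretches that hold the matches are shown, 5′ to 3′ on the strand of the gene, with the match in capitals: AP-1 in Cd80 (chr16:38458833-38458932, plus strand), Slamf7 (chr1:171649000-171649099, minus strand) and Havcr2 (chr11:46454681-46454780, plus strand), and the NF-kB consensus, read on the opposite strand, in Pdcd1lg2 (chr19:29410669-29410768, plus strand).
Cd80: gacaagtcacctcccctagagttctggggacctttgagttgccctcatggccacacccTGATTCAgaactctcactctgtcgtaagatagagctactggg
Slamf7: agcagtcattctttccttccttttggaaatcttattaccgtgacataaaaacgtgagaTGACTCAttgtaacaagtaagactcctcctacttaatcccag
Havcr2: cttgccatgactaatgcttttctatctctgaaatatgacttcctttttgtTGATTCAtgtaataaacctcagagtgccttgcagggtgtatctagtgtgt
Pdcd1lg2: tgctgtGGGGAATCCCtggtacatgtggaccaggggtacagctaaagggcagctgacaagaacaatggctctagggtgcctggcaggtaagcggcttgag

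The AP-1 letters lay at -42 to -36 from the annotated start in both Cd80 and Slamf7, which rose at 2 h, and at -200 to -194 in Havcr2, which fell. The NF-kB letters lay at -244 to -235 in Pdcd1lg2, which passed no LPS test. A match is a run of letters and not a measured site, and windows without a match say only that these letters are not in them. The AP-1 motif reads nearly the same on both strands, so each of its matches was found on both.

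Genotype separated 7 of the 10 genes between the genotypes over the 4 times: Cd80, Cd86, Cd274 and Icos were higher and Icosl, Cd83 and Slamf7 were lower in the labelled knockout. Of all tested genes 13.5% were called, 4.75% as higher and 8.72% as lower. The median difference was 0.04 log2 units over the 10 genes and -0.04 over all tested genes. The split over all genes was 596 higher and 1094 lower as deposited, 721 and 830 after cyclic loess, and 475 and 1859 after housekeeping centring. For the members it was 4 and 3, 4 and 3, and 3 and 3. Differences had 1 sign at all 4 times for 8 of the 10 genes, 4 higher and 4 lower, the eighth being Havcr2, against 39.3% of all tested genes (14.8% higher and 24.5% lower). This comparison uses the same 8 arrays as the LPS comparisons, with time as a block. An array without its partner of the same time then adds nothing to the genotype difference. Leaving out either array of a time thus gave the same genotype fit. When 1 array was left out, 4 to 5 members were called: Cd83, Cd86, Icos and Icosl in every such fit, and the rest as given below.

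**Figure D3:**
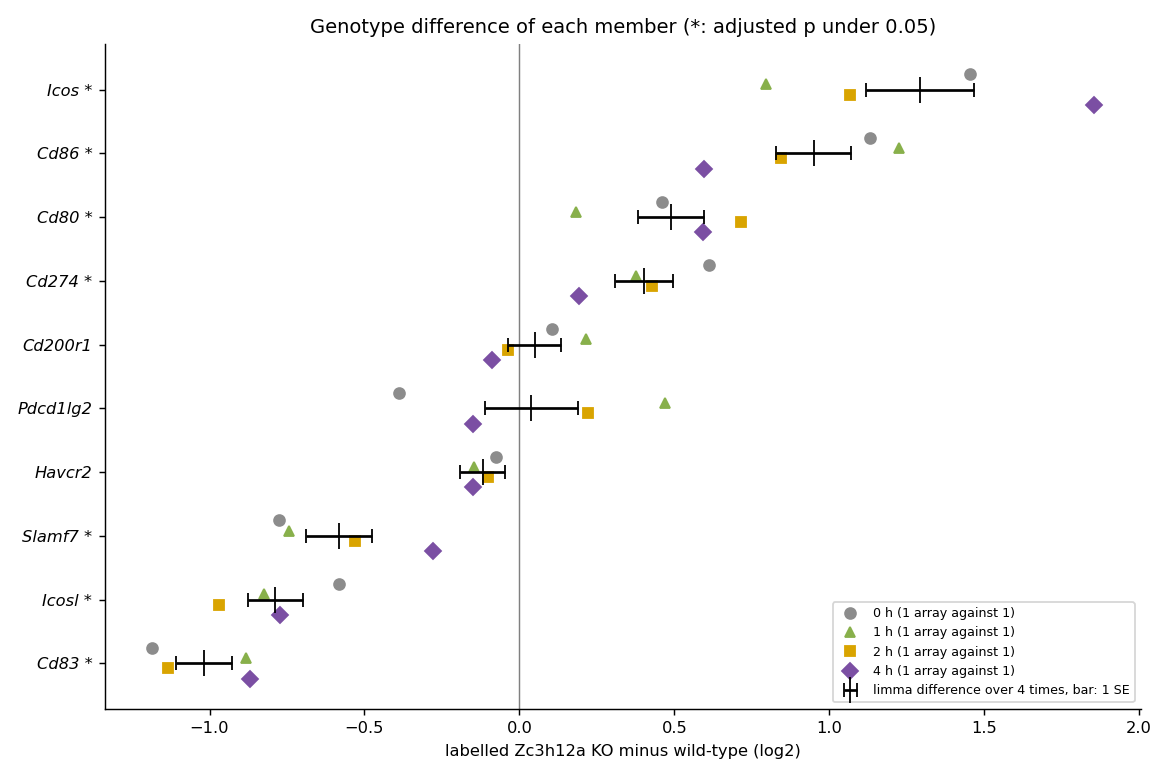
Difference between labelled knockout and wild type (log2) for each gene, with 1 point per time and a black mark for the mean over the 4 times with bars of 1 limma SE; an asterisk marks an adjusted p under 0.05. Icos at 1.29 and Cd83 at -1.02 mark the ends of the range.

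Among the ligands, Cd86 differed most in the upward direction. Its level in the labelled knockout exceeded wild type by 1.13, 1.22, 0.84 and 0.60 log2 units at 0, 1, 2 and 4 h. The difference was thus present before LPS. Its mean on 1449858_at was 0.95 (SE 0.12, limma adjusted p = 0.00648), a 1.93-fold difference seen at 4 of 4 times. The other Cd86 probe set, 1420404_at, gave 0.33 without passing (adjusted p = 0.163) and was lower in the labelled knockout at 2 h. Cd80 was higher by 0.46, 0.18, 0.72 and 0.59, with a mean of 0.49 (SE 0.11, adjusted p = 0.0331), a 1.40-fold difference. The Cd80 call was lost without any 1 of the 0 h, 2 h or 4 h arrays (adjusted p up to 0.118) and on the mean of its probe sets (0.29, adjusted p = 0.166). Cd274 was higher by 0.61, 0.38, 0.43 and 0.19, with a mean of 0.40 (SE 0.09, adjusted p = 0.0392), a 1.32-fold difference. The Cd274 call was lost without any 1 of the 8 arrays (adjusted p from 0.0533 to 0.14) and after housekeeping centring (adjusted p = 0.0799). Pdcd1lg2 differed by -0.39, 0.47, 0.22 and -0.15, with a mean of 0.04 (SE 0.15, adjusted p = 0.883).

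Icosl moved in the opposite direction to the other B7-family ligands that were called. It was lower in the labelled knockout at all 4 times, with differences of -0.58, -0.82, -0.97 and -0.77 log2 units, with a mean of -0.79 (SE 0.09, limma adjusted p = 0.00448), and its call held without any 1 of the 8 arrays (adjusted p from 0.0171 to 0.0232). Its receptor Icos was higher by 1.45, 0.80, 1.07 and 1.85, with a mean of 1.29 (SE 0.17, adjusted p = 0.00791), a 2.45-fold difference. On this probe set, 1436598_at, Icos read 3.68 to 4.73 in wild type and 5.07 to 6.13 in the labelled knockout. On probe set 1421930_at the difference was 0.04. The Icos call on 1436598_at also held without any 1 array, with limma adjusted p from 0.0109 to 0.047.

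Cd83 differed most in the downward direction, by -1.19, -0.88, -1.13 and -0.87 log2 units, with a mean of -1.02 (SE 0.09, limma adjusted p = 0.0019), a 2.03-fold decrease. Without any 1 array the value stayed between -1.07 and -0.96 (adjusted p from 0.00831 to 0.0153). Slamf7 was lower too, with differences of -0.77, -0.74, -0.53 and -0.28, with a mean of -0.58 (SE 0.11, adjusted p = 0.0202), and its call was lost without any 1 of the 0 h, 1 h or 2 h arrays (adjusted p up to 0.0862). The inhibitory receptors gave small values: Havcr2 -0.12 (SE 0.07, adjusted p = 0.309) and Cd200r1 0.05 (SE 0.09, adjusted p = 0.733). A p that misses the threshold does not show that these 2 genes had equal levels.

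A further fit compared the genotype difference of the 1, 2 and 4 h arrays together with the difference at 0 h. None of the 10 genes passed, with the limma adjusted p at 1 for each, and 0 of all 12540 genes passed (0% called). An unadjusted limma p under 0.05 was found for 434 genes, a share of those tested that is itself below 0.05. With trend and robust settings limma called 15. With 2 residual degrees of freedom the estimates were loose. The change was -0.24 for Cd86 (SE 0.29), -0.28 for Cd274 (SE 0.20), -0.27 for Icosl (SE 0.20) and 0.22 for Cd83 (SE 0.21). It was 0.26 for Slamf7 (SE 0.25), -0.21 for Icos (SE 0.43) and 0.57 for Pdcd1lg2 (SE 0.29). For Cd200r1 it was -0.08 (SE 0.22), and for Havcr2 -0.06 (SE 0.18). For Cd80 it was 0.04 (SE 0.27) on 1427717_at. On 2 other Cd80 probe sets it was larger and did not pass, 1.35 (SE 0.50) on 1432826_a_at and 0.85 (SE 0.28) on 1451950_a_at. The smaller differences of Cd86, Cd274 and Slamf7 at 4 h than at 0 h compare single arrays, and a trend of the difference over the times was not tested.

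The 10 genes had 18 single-symbol probe sets, 1 for each of 5 genes and several for each of the other 5. Of these, 14 were above background on all 8 arrays and 3 on at most 1 array. The gene values above are those of the probe set with the highest mean. For Cd86 the other probe set, 1420404_at, read 4.82, 5.10, 6.13 and 7.22 in wild-type cells, against 5.44, 5.55, 6.03 and 7.55 in labelled-knockout cells. It rose by 2.26 at 4 h (limma adjusted p = 0.000161), but its genotype difference of 0.33 did not pass (adjusted p = 0.163), with the labelled knockout lower at 2 h.

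For Cd80, probe set 1432826_a_at read 3.63, 4.03, 5.64 and 4.71 in wild-type cells, against 3.19, 4.20, 7.05 and 5.87 in labelled-knockout cells. It rose by 2.93 at 2 h (limma adjusted p = 0.00261), with a genotype difference of 0.57 (adjusted p = 0.264). Probe set 1451950_a_at read 4.24, 3.61, 5.19 and 4.40 in wild-type cells, against 3.66, 3.57, 5.52 and 4.92 in labelled-knockout cells, with a rise of 1.41 at 2 h (adjusted p = 0.00632) and a genotype difference of 0.06 (adjusted p = 0.864). On both, the labelled knockout was lower at 0 h and higher at 2 h and 4 h, whereas on 1427717_at it was higher at all 4 times. The rise at 2 h was thus called on all 3 probe sets that were above background, and the genotype difference on 1 of them.

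The Icos genotype difference likewise rested on a single probe set. Probe set 1421930_at lay between 3.75 and 3.85 in wild type and between 3.57 and 4.06 in the labelled knockout, a difference of 0.04 (limma adjusted p = 0.845), and 1421931_at was above background on 1 of 8 arrays. On the mean of the 3 probe sets the difference was 0.55 (adjusted p = 0.0305), and the LPS calls at 2 h and 4 h were lost (adjusted p = 0.12 and 0.0941). The other Icosl probe set was below background on all 8 arrays. The other Cd200r1 probe set, 1422191_at, fell by 1.47 at 4 h (adjusted p = 0.00023), with a genotype difference of -0.02 (adjusted p = 0.888).

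**Figure D4:**
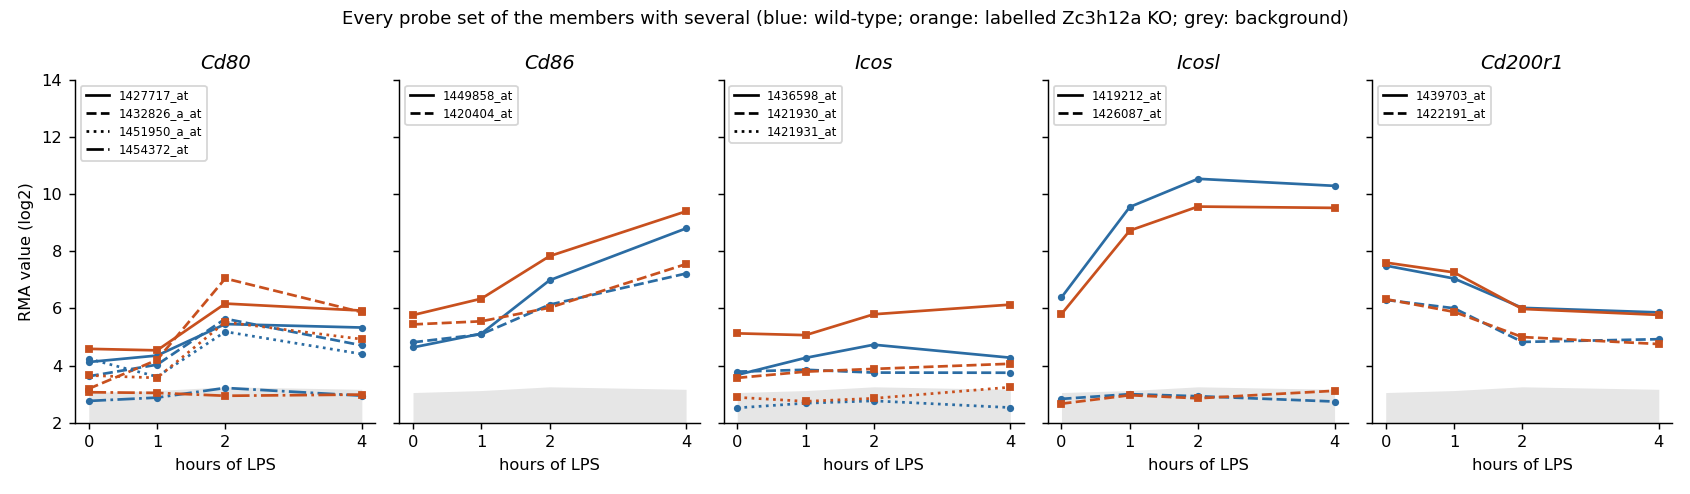
Log2 values on each single-symbol probe set of the 5 genes that have several, against hours of LPS, with 1 line per genotype. Both Cd86 probe sets are higher at 4 h than at 0 h, by 3.90 and 2.26, and both Cd200r1 probe sets are lower. The Icos genotype gap of 1.29 appears on 1 of its 3 probe sets, and the grey band is the background.

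Markers of other cells bear on Icos in particular, since it is a T cell gene. Of 12 T cell markers, 10 were measured and 6 were tested. Their summed linear signal was 102.8 to 106.0 in wild type and 121.0 to 160.6 in the labelled knockout. The gap between these sums lay mainly in Cd3e, the 1 marker of the list above background on all 8 arrays. Cd3e, a chain of the T cell receptor complex, read 4.70, 4.96, 5.01 and 5.16 in wild-type cells, against 5.89, 5.64, 5.53 and 6.35 in labelled-knockout cells, higher by 0.89 (SE 0.14, limma adjusted p = 0.0124). Thy1 was not well above background on any wild-type array and was above it on 3 of 4 labelled-knockout arrays. With the wild-type arrays taken at background, its mean was 1.20-fold higher in the labelled knockout. The limma adjusted p of 0.0395 belongs to the measured difference of 0.67 log2 units and not to this value. These readings lay near the limit of detection. Cd2 was lower without passing the test (-0.42, adjusted p = 0.104), and Cd4, above background on 7 of 8 arrays, differed by 0.02 (adjusted p = 0.928). Of the 6 tested, 2 were thus higher and 0 lower, or 1 and 1 after housekeeping centring. Cd3g, Cd5 and Cd8a were below background on all 8 arrays on the probe set of highest mean. Icos and Cd3e were both highest in the labelled-knockout 4 h array. The part of T cells in the Icos difference was not tested.

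Dendritic cells also carry most of these ligands. Of the dendritic cell markers, the summed signal was 1567 to 2004 in wild type and 759.8 to 862.9 in the labelled knockout, carried mainly by Itgax, the integrin CD11c that macrophages share, which was lower in the labelled knockout (-1.19, SE 0.11, limma adjusted p = 0.00229). Zbtb46, a transcription factor of conventional dendritic cells, was higher without passing the test (0.40, SE 0.13, adjusted p = 0.104) and rose at 4 h of LPS (0.86, adjusted p = 0.0116). Of the 3 tested, 0 were called higher and 1 lower. Ccr7 and Xcr1 were below background on all 8 arrays. Single members of other lists moved apart: among B cell markers Ighm was higher by 3.68 (adjusted p = 0.000121) and Cd22 lower (-1.47, adjusted p = 0.000925), and among neutrophil markers S100a9 was higher by 3.12 (adjusted p = 8.73e-05) and Csf3r lower (-1.10, adjusted p = 0.00915). The summed signal of the B cell list was 339.5 to 922.6 in wild type and 597.7 to 1001 in the labelled knockout, and that of the neutrophil list 1454 to 3717 and 1589 to 4009. Of the eosinophil and mast cell list (86.95 to 132.7 against 84.57 to 106) Cpa3 alone was called, as lower (-1.44, adjusted p = 0.0193), and of the NK cell list (37.52 to 41.46 against 39.08 to 40.42) 0 of 2 tested genes were. The part of these markers in the member values was not tested.

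Other genes of the same signalling systems were read from lists of relatives and partners. The costimulatory TNF family acts beside B7 ligands; of its 9 listed genes 3 were tested, 0 differed by genotype and all 3 rose at 4 h (4 of those tested after housekeeping centring). Cd40, the receptor through which helper T cells license macrophages, read 6.57, 10.36, 11.76 and 12.71 in wild-type cells, against 6.88, 9.50, 10.82 and 12.43 in labelled-knockout cells, a rise of 5.84 at 4 h (SE 0.30, limma adjusted p = 3.61e-05). Tnfsf9, the ligand of 4-1BB, read 3.90, 12.54, 11.92 and 9.49 in wild-type cells, against 3.91, 12.18, 11.36 and 9.54 in labelled-knockout cells, highest at 1 h as Cd83 was. Tnfsf4, which encodes OX40 ligand, was not well above background at 0 h and was higher by at least 1.34-fold at 4 h (limma adjusted p = 0.0136 on the measured values).

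Of 9 other B7, butyrophilin and nectin ligands, 6 were tested, 0 differed by genotype (1 was lower after housekeeping centring), and at 4 h 2 rose and 1 fell (3 and 1 after housekeeping centring). Vsir, which encodes the inhibitory ligand VISTA, read 9.31, 8.64, 7.64 and 5.45 in wild-type cells, against 8.96, 8.56, 7.19 and 4.66 in labelled-knockout cells. It fell by 4.08 at 4 h (SE 0.18, limma adjusted p = 2.03e-05), opposite in direction to Cd274. Pvr, the ligand of DNAM-1 and TIGIT, rose by 1.07 (adjusted p = 0.0333), and Nectin2 by 0.99 (adjusted p = 0.00117).

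A list of 12 genes held partners of the members together with other lymphocyte receptors, such as Btla, Lag3 and Cd226, that are not their partners. Of these 12 genes 6 were tested, 0 differed by genotype, and at 4 h 3 rose and 3 fell (4 and 2 after housekeeping centring). Lgals9, which encodes the TIM-3 ligand galectin-9, read 8.13, 8.07, 8.79 and 10.53 in wild-type cells, against 7.94, 7.99, 8.69 and 10.34 in labelled-knockout cells. It rose by 2.40 at 4 h (SE 0.10, limma adjusted p = 2.07e-05) while Havcr2 fell by 2.51. Cd200, the ligand of CD200R1, rose by 1.19 (adjusted p = 0.00483) while Cd200r1 fell by 1.73. Ceacam1, which encodes another reported TIM-3 ligand, fell by 1.01 (adjusted p = 0.000463), in the same direction as Havcr2. Pdcd1, which encodes PD-1, was below background on all 8 arrays, and Ctla4 was above it on 2. The brighter Cd28 probe set read 4.75 and 5.43 at 0 h and 2.89 and 3.11 at 4 h, below background there, a change of -2.08 (adjusted p = 0.000151), whereas the other read 3.31 and 3.96 at 0 h and stayed just above background at 4 h, at 3.10 and 3.24, a change of -0.46 that did not pass (adjusted p = 0.0855).

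Of 11 SLAM-family genes and adaptors beside Slamf7, 8 were tested. Cd244a was higher in the labelled knockout (1.53, SE 0.21, limma adjusted p = 0.00819), and Cd84 (-0.45, adjusted p = 0.0142) and Ly9 (-0.39, adjusted p = 0.0458) were lower, as Slamf7 was. The count was 1 higher and 2 lower as deposited, 1 and 1 after cyclic loess, and 1 and 4 after housekeeping centring. At 4 h 3 rose and 2 fell (6 and 2 after housekeeping centring). Slamf1, a SLAM receptor that also senses bacteria in macrophages, read 3.50, 3.86, 4.53 and 8.10 in wild-type cells, against 3.73, 3.55, 5.25 and 9.06 in labelled-knockout cells, a rise of 4.97 at 4 h (SE 0.29, adjusted p = 5.64e-05), with its widest step after 2 h. Slamf8 rose by 1.81 and Slamf9 by 2.04.

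Of 6 other TIM and CD200-receptor genes 3 were tested, and 2 were higher in the labelled knockout, while at 4 h 1 rose (2 after housekeeping centring). Timd4, a phosphatidylserine receptor and one of the resident macrophage markers, read 4.87, 5.30, 5.95 and 6.39 in wild-type cells, against 6.34, 6.61, 8.17 and 8.86 in labelled-knockout cells, a difference of 1.87 (SE 0.21, limma adjusted p = 0.00405). The brighter Timd2 probe set read 2.65, 2.89, 2.76 and 2.63 in wild-type cells, not well above background, against 3.76, 3.92, 3.92 and 4.00 in labelled-knockout cells. It was at least 1.73-fold higher there (limma adjusted p = 0.00105 on the measured values). The other Timd2 probe set, above background on 1 wild-type array, differed by 0.33 without passing (adjusted p = 0.113). Havcr2, of the same family, had a genotype difference of -0.12.

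MHC class II presents the antigen that costimulation accompanies. Of 8 listed genes of its machinery 7 were tested, and 5 were higher in the labelled knockout (4 after housekeeping centring), with 0 lower. H2-Eb1 was higher by 0.88 (SE 0.07, limma adjusted p = 0.00151), Cd74, the invariant chain, by 0.55 (adjusted p = 0.00881) and H2-Aa by 0.54 (adjusted p = 0.00912), in the same direction as Cd86 and opposite to Cd83. At 4 h of LPS 0 of the 7 rose and 1, H2-DMa, fell by 0.80 (adjusted p = 0.00236); after housekeeping centring 5 rose and 0 fell.

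**Figure D5:**
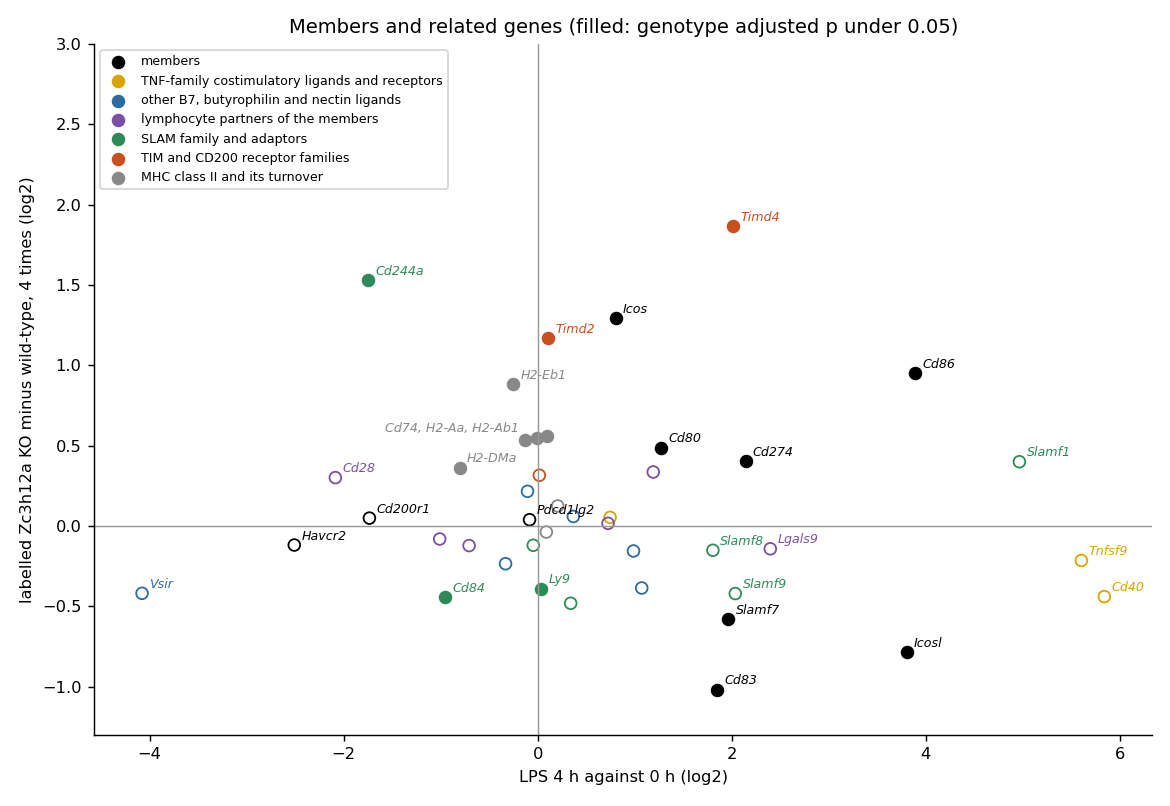
Genotype difference (log2, vertical) against change at 4 h of LPS (log2, horizontal) for the 10 genes and the tested genes of the companion lists, 1 point per gene, filled where the genotype adjusted p is under 0.05. The members spread to both sides of 0 on both axes, Cd40 and Tnfsf9 lie beyond 5 to the right, and Vsir lies at -4.08.

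The genes whose 8 values ran most like each member, by Pearson's r among 5679 tested genes with a range of at least 1 log2 unit, are a description, since the arrays share their LPS course. For Icosl they were Icam1 (0.995), Tlr7 (0.993) and Dmtf1 (0.992), and for Cd86 they were Zfp281 (0.992), Gbp6 (0.992) and Myo10 (0.991). Gbp6 was also the gene most like Cd274 (0.989), followed by Ghr (0.986) and by Cd86 itself (0.986). Cd83 had few close companions, led by Trim13 (0.977) and Pim1 (0.971), with 6 genes above 0.95. For Icos the nearest were Col9a3 (0.993), Dtd1 (0.981) and Clcn5 (0.969), with 9 genes above 0.95. Havcr2 and Cd200r1 each had 256 genes above 0.95, led by Tmem71 (0.999) and Rab11fip5 (0.997), Slamf7 had 52, led by Zdhhc5 (0.993), Cd80 had 18, led by Bdp1 (0.989), and Pdcd1lg2, near background, had 0, with Kat8 nearest (0.943).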

How the data were processed

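Total RNA of macrophages was labelled by the NuGEN Ovation method and hybridised to 8 Affymetrix arrays, per the labels' protocols. The authors deposited log2 expression values of 45101 probe sets, made with RMA per the submitters' processing notes; no source used here gives its version, and log2 was read from the range of the values. By the platform annotation 34945 probe sets have 1 gene symbol, 932 several and 9224 none; only the first were used. A gene is its probe set of highest mean and was tested when its next-to-highest array reached 3.16, the median of all values. limma 3.58.1 (R 4.3.3; lmFit and eBayes) fitted time plus genotype to all 8 arrays (3 residual degrees of freedom), with Benjamini-Hochberg adjustment over 12540 genes and a threshold of 0.05; a further fit added genotype by LPS (2 degrees of freedom). The scripts were tested on simulated data. SE is limma's. The number of arrays limits the precision.

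A probe set was taken as above background when it exceeded the highest of 27 bacterial control probe sets, a rule chosen after the data were seen. Where all arrays of a group were below it, "at least" gives the bright group's mean over the dim group's mean of, per array, the higher of that background and the probe's own value.

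The genes named are all members, up to 3 tested genes of each companion or marker list with the smallest adjusted p by genotype and at 4 h, and the 3 genes of highest Pearson r with each member. The members and lists were chosen with earlier results of these data known. The alternatives were cyclic loess, centring on 9 housekeeping genes, no filter or a 75th percentile filter, other choices of probe set, eBayes with trend and robust settings, each array left out in turn, no time block, and the 1, 2 and 4 h arrays alone; each other probe set of a member was added after the data were seen.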

Additional observations from a re-analysis of the deposited data

How the results depend on the processing

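The 2 h and 4 h counts of 9 members ran from 8 to 10 and from 8 to 9 when 1 array was left out. Without the time block, which leaves the LPS course in the residual, 0 members and 150 genes differed by genotype, and with the 1, 2 and 4 h arrays alone 4 members and 597 genes did. Leaving out 1 array gave 4 to 5 members and 597 to 1237 genes by genotype, 4 to 8 and 1201 to 2613 from 1 h to 2 h, 3 to 5 and 1331 to 2471 from 2 h to 4 h, and over all genes 454 to 1086 at 1 h, 3141 to 5248 at 2 h and 0 to 6 for a changed genotype difference. Housekeeping centring called 8289 genes at 4 h, and limma with trend and robust settings called 15 for a changed genotype difference. Cd83, Cd86, Icos and Icosl kept their genotype call in 16 of 17 alternatives at the gene level, all but the fit without the time block. These 17 are not all distinct for genotype. The fits without either array of a time are the same, and the fit on the 1, 2 and 4 h arrays equals those without a 0 h array. Cd86 (0.33, limma adjusted p = 0.163) and Icos (0.04, adjusted p = 0.845) lost the call on their other probe set above background. Values that turned sign were all uncalled.

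Under housekeeping centring these were Cd200r1 by genotype (-0.028), the changed difference of Cd80 (-0.034), Icos from 2 h to 4 h (0.030), and Pdcd1lg2 by genotype (-0.038) and at 4 h (0.38). On the mean of all probe sets they were Icos from 2 h to 4 h (0.035) and its changed difference (0.017). On single other probe sets they were Cd200r1 by genotype (-0.025), Cd80 at 1 h (-0.35) and Icos from 1 h to 2 h (-0.0014), from 2 h to 4 h (0.087) and for its changed difference (0.34). Leaving out 1 array gave ranges across 0 for Cd200r1 by genotype (-0.0066 to 0.094), Cd80 at 1 h (-0.12 to 0.29) and for its changed difference (-0.072 to 0.19), Icos at 1 h (-0.064 to 0.60), from 2 h to 4 h (-0.43 to 0.32) and for its changed difference (-0.52 to 0.0070), and Pdcd1lg2 by genotype (-0.11 to 0.18), at 1 h (-0.54 to 0.032) and at 4 h (-0.37 to 0.20).

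The cause of these changes was not tested. The changed difference could not be fitted without a 0 h array, Pdcd1lg2 did not pass the 75th percentile filter, and Slamf7 has no probe set outside the _a_at class. No paired analysis was possible because the labels carry no replicate numbers and each condition has 1 array; the time block takes that place. Probe sets near background, such as those of Pdcd1lg2 and the lower Icos and Cd80 ones, limit what can be read from these genes.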
